A study of Rattus norvegicus with 6 samples.

Results

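Neural crest transcription factors are the DNA-binding proteins that establish and maintain the neural crest, the migratory embryonic population from which Schwann cells, melanocytes and much of the peripheral nervous system arise. The 10 genes described here were chosen by name: Sox10, Pax3, Tfap2a, Tfap2b, Foxd3, Snai1, Snai2, Twist1, Ets1 and Mitf. All 10 were found among the 29468 gene symbols of the tables, 20494 of them above 0 somewhere. They were compared between Schwann cell precursors (SCPs) and repair Schwann cells (RSCs), each measured by RNA-seq in 3 samples taken from separate preparations of cells. SCPs came from sciatic nerves and brachial plexus of wild-type Lewis rat embryos at embryonic day 14. RSCs came from the distal stump of sciatic nerves of 10-week-old wild-type Lewis rats, 1 week after the nerve was cut. Both preparations were dissociated from whole nerve and freed of adhesive cells by a short step on uncoated plastic, with no sort on a Schwann cell marker. Age, nerve injury and the mixture of cells therefore differed together between the groups and cannot be told apart.

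In the embryo these factors act in a cascade. PAX3 and the AP-2 proteins TFAP2A and TFAP2B mark the neural plate border and the crest that forms there. FOXD3, SNAI1, SNAI2, ETS1 and SOX10 specify crest cells and, with TWIST1, accompany their departure from the neuroepithelium. SOX10 is then kept in the glial lineage, where it is required from precursor to myelinating cell, while MITF directs the melanocyte lineage.

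Levels were in FPKM, fragments scaled by transcript length and by the number of mapped fragments. Each transcript row carried either a gene name or, for models that Cufflinks assembled from the reads of that sample, no name. Named rows were summed for each gene, and the fit of these sums is the principal test. Because unnamed models held much of some members' signal, the sum of named and unnamed rows of the same locus was fitted in the same way and is given beside it. Both fits used limma on log2(FPKM + 1) restricted to genes that averaged 1 FPKM or more, and a gene was called at an unadjusted p under 0.01. The Benjamini-Hochberg adjustment ran over every gene in the fit. Each log2 fold change is RSC minus SCP on the log2(FPKM + 1) scale, which understates the change of low genes.

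Relative depth, from coverage per FPKM, was 0.878 to 1.00 in SCPs and 0.789 to 0.841 in RSCs, and the number of reads is not known. Every RSC was thus somewhat shallower than every SCP on this measure. Its part in values at or near 0 in RSCs was not tested. Pearson's r of log2(FPKM + 1) over genes was 0.88 to 0.90 between samples of the same group and 0.64 to 0.67 between samples of different groups. Cells other than Schwann cells were represented in both groups. All 14 leukocyte markers were higher in RSCs, with a summed level of 23.7 to 68.9 FPKM in SCPs and 3019 to 3828 FPKM in RSCs. Of 8 muscle lineage markers, 7 were higher in SCPs, summing to 76.0 to 278 FPKM against 28.8 to 32.8 FPKM, and Pax7, Myf5 and Myod1 were listed at 0 in every RSC sample. All 8 were called, but 4 without RSC 1 and 5 without SCP 2 or SCP 3. Fibroblast markers were higher in RSCs (7 of 8, 643 to 1022 FPKM against 5380 to 8029 FPKM). Erythroid markers, 6 of 7 tested, were higher in SCPs, summing to 30610 to 131540 FPKM against 1420 to 1836 FPKM in RSCs. Their largest sum was in SCP 3, where all rows together held 836132 FPKM. The part of erythroid RNA in the scaling of the samples was not tested. Of the other lists, 2 of 7 neuron markers and 1 of 6 pericyte markers were called. With the same named rows, 5268 of all 13003 genes were called. Schwann cell lineage markers were present in both groups, and Fabp7 was the only one of 10 that was at 0 in all SCPs once unnamed rows were added.

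With named rows, 9 members passed the filter on low values, 5 were called and all 5 were higher in SCPs. These were Sox10, Tfap2a, Tfap2b, Twist1 and Ets1. Of all 13003 genes tested, 22.4% were called higher in SCPs and 18.1% higher in RSCs. Only Tfap2b also changed more than 4-fold, a threshold that 3.78% of all genes passed in that direction. With unnamed rows added, all 10 members passed the filter and 8 were called. Sox10, Pax3, Tfap2a, Tfap2b, Snai1, Twist1 and Ets1, were then higher in SCPs, and Mitf was higher in RSCs. In that fit 34.1% of 14020 genes were called higher in SCPs and 23.2% higher in RSCs. Tfap2b and Twist1 passed 4-fold, against 4.58% of all genes. The 3 SCP values and the 3 RSC values did not overlap for 8 members, and the same held for 72.4% of all genes tested. The median log2 fold change over the tested members was -0.69 with named rows and -0.67 with unnamed rows, beside -0.17 and -0.24 over all genes tested. These are bulk samples, in which fewer cells of a type and less RNA per cell cannot be told apart.

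**Figure D1:**
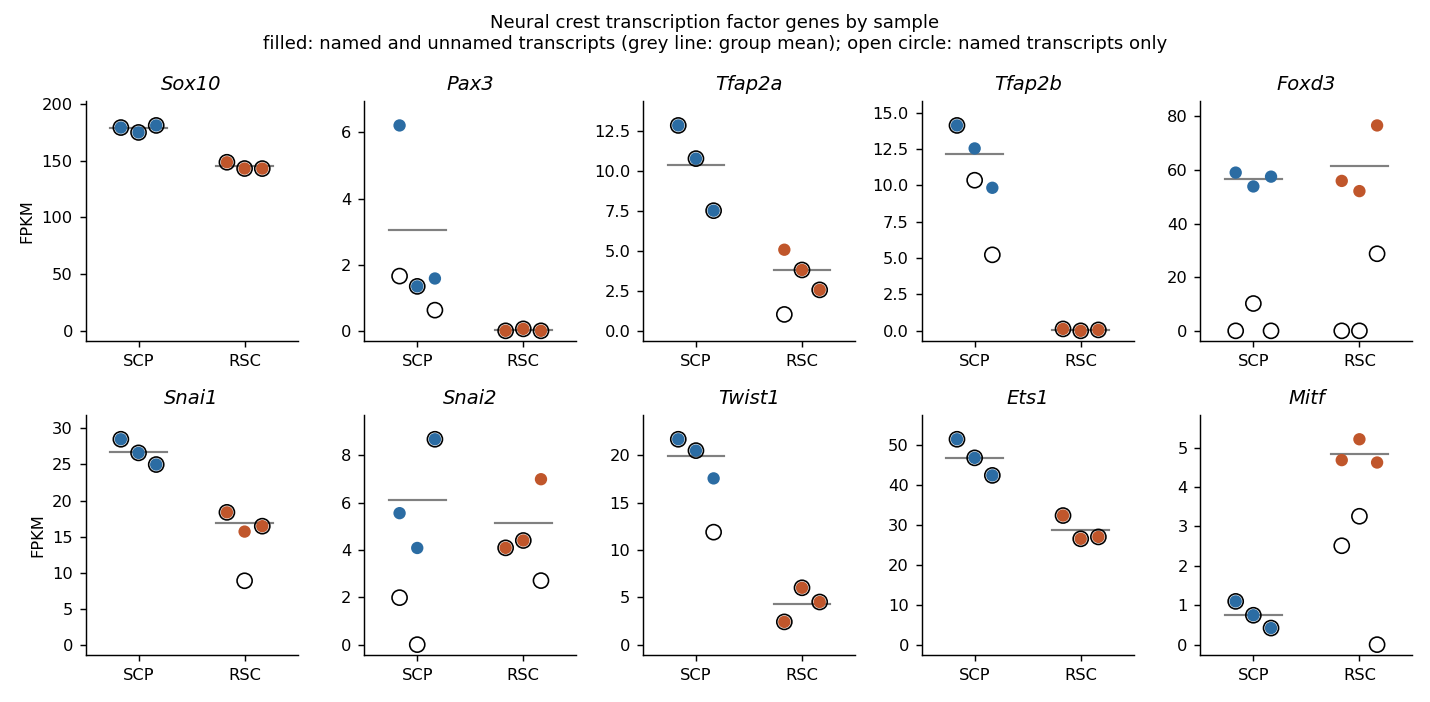
FPKM of each member in the 3 SCP samples (blue) and 3 RSC samples (orange), with filled points for named and unnamed transcripts together, open circles for named transcripts only and a grey line at the mean of the filled points in each group. Tfap2b and Pax3 lie near 0 in all RSC samples, while the filled points of Foxd3 and Snai2 overlap between groups.

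Sox10 was the most abundant member in every sample and differed least of the called members. Its single named transcript (rn6 chr7:120393254-120403523) had no unnamed companion. The level was 179, 175 and 181 FPKM in SCPs and 149, 143 and 143 FPKM in RSCs. All SCPs lay above all RSCs, and the spread within each group was small (178.5 ± 3.17 against 145 ± 3.21 FPKM, SD, n = 3). The log2 fold change was -0.30 (SE 0.06, limma, adjusted p = 0.00767). The median gene stood at -0.17 in the same fit, and relative to it Sox10 stood at -0.13. When the samples were scaled by the median of ratios, which put the median gene at 0.01, the log2 fold change of Sox10 was -0.09 (limma, adjusted p = 0.308), and the call was lost. It was also lost without RSC 2 (-0.29, adjusted p = 0.0299). In rank among all gene symbols above 0 in the sample, with unnamed rows added, Sox10 stood at the 97.5th to 97.6th percentile in SCPs. It stood at the 96.3rd to 96.7th in RSCs.

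The largest change of any member was in a gene of the neural plate border. Tfap2b encodes AP-2 beta, a factor of crest and sympathetic progenitors (rn6 chr9:25410669-25440426). Its named transcripts were at 14.1, 10.4 and 5.23 FPKM in SCPs and at 0.130, 0 and 0.0627 FPKM in RSCs. With unnamed rows, the SCP values became 14.1, 12.5 and 9.84 FPKM and the RSC values did not change. Every SCP sample thus held Tfap2b and each RSC sample was at or close to 0. The log2 fold change was -3.27 (SE 0.36, limma, adjusted p = 8.76e-04) with named rows and -3.62 (SE 0.17, adjusted p = 1.01e-05) with unnamed rows. All 3 annotated Tfap2b transcripts contributed in SCP 1, whereas SCP 2 and SCP 3 had 1 of them at 0 each.

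Tfap2a, which encodes AP-2 alpha (rn6 chr17:24647833-24670457), was lower in RSCs but remained detected there. Named transcripts were at 12.9, 10.8 and 7.52 FPKM in SCPs and 1.03, 3.81 and 2.56 FPKM in RSCs. The groups did not overlap, and RSC 1 was the lowest sample. The difference was -1.77 on the log2 scale (SE 0.38, limma, adjusted p = 0.0106). An unnamed model of 4.05 FPKM in RSC 1 raised that sample to 5.08 FPKM, and the log2 fold change became -1.25 (SE 0.26, adjusted p = 0.00539). Named rows lost the call without SCP 1, SCP 2 or RSC 3 (-1.62, -1.74 and -1.84), and the sums with unnamed rows lost it without SCP 2 (-1.21). The shorter of its 2 annotated transcripts (2244 bases) carried most of the named signal, at 6.66 to 12.9 FPKM in SCPs and 0.828 to 3.09 FPKM in RSCs. The longer one (3305 bases) did not exceed 1.18 FPKM in any sample. Cufflinks gave the shorter transcript the status LOWDATA in every sample, so the split between the 2 is uncertain.

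Pax3, a paired-box factor of the border, the crest and muscle progenitors (rn6 chr9:84004004-84101230), was low in SCPs and nearly absent from the RSC tables. Named transcripts were at 1.65, 1.34 and 0.625 FPKM in SCPs, and at 0, 0.0589 and 0 FPKM in RSCs, a mean below the filter. Unnamed models in SCP 1 and SCP 3 raised the SCP values to 6.21, 1.34 and 1.58 FPKM. Every SCP lay above every RSC, with SCP 1 well apart from the other SCPs. Summed with unnamed rows, Pax3 differed by -1.79 on the log2 scale (SE 0.44, limma, adjusted p = 0.0102). Without SCP 1 Pax3 fell below the filter, and without any 1 of the RSC samples the call was lost (-1.77 to -1.82, limma, adjusted p = 0.0293 to 0.0323). Muscle progenitors also express Pax3, and its relative Pax7, which marks them, was at 0.918 to 3.11 FPKM in SCPs and 0 in all RSCs. The part of the muscle lineage in the Pax3 result was not tested. The 250 bases before the annotated start of Pax3 (RefSeq, GRCr8, minus strand, chr9:87112532-87112781) are shown because they hold 1 CACGTG, the E-box that MITF-family factors can bind, in capitals.

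Pax3: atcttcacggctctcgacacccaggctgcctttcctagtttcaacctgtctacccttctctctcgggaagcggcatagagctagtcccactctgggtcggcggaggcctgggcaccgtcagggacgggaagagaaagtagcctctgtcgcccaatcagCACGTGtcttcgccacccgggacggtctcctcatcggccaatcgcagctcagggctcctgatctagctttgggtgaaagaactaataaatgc

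Foxd3, a forkhead factor of premigratory crest that is kept in early glia, was not called in either fit, and most of its signal lay outside its named row. The named row (rn6 chr5:118346586-118349120) stood at 0, 10.2 and 0 FPKM in SCPs and 0, 0 and 28.8 FPKM in RSCs. Unnamed models of the same locus were present in every sample, and the sums were 59.0, 53.9 and 57.5 FPKM in SCPs and 55.9, 52.1 and 76.6 FPKM in RSCs. On these sums Foxd3 ranked next after Sox10 in every sample, and the RSC range enclosed the SCP range. They differed by 0.09 on the log2 scale (SE 0.15, 95% interval -0.27 to 0.46, limma, adjusted p = 0.599), without RSC 3 it was -0.07, and under median-of-ratios scaling it was 0.36 (adjusted p = 0.0740). The named row alone gave 0.47 with an SE of 1.66, and -1.16 without RSC 3 or -0.11 without SCP 1 or SCP 3. The unnamed models began 7 to 3146 bases to the left of the named row and ended 462 to 711 bases to its right. They also reached an adjoining named transcript, LOC102556374, which overlaps the Foxd3 row by 3 bases. LOC102556374 was at 25.4, 17.1 and 20.4 FPKM in SCPs and 43.8, 43.5 and 44.7 FPKM in RSCs, a log2 fold change of 1.05 (SE 0.15, limma, adjusted p = 0.00248). The tables carry no strand, and how far reads of the neighbour entered the Foxd3 models was not tested. The Foxd3 promoter window is shown for the same E-box, which stands 209 to 204 bases before the start (RefSeq, GRCr8, plus strand, chr5:119450282-119450531).

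Foxd3: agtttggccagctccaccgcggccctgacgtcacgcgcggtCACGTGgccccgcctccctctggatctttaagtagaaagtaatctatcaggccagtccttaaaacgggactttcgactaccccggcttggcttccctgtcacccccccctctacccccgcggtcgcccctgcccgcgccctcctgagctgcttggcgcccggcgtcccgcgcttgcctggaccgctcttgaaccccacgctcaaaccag

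**Figure D2:**
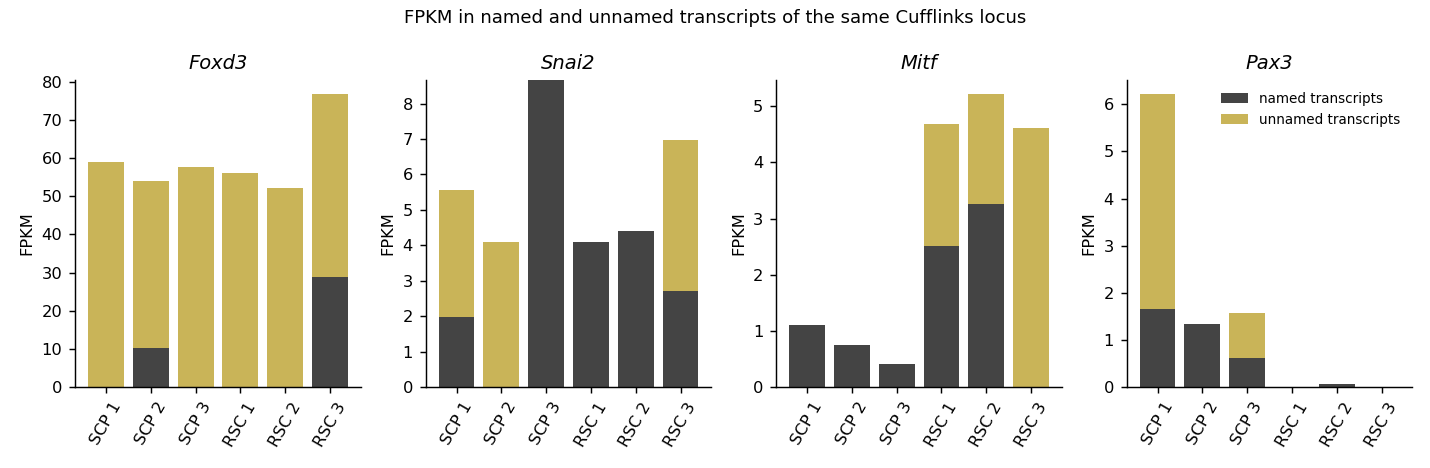
FPKM of Foxd3, Snai2, Mitf and Pax3 in each sample, stacked as named transcripts (dark) and unnamed transcripts of the same Cufflinks locus (yellow). Foxd3 is carried by unnamed transcripts in all 6 samples, and Mitf in RSC 3 entirely so.

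Ets1 encodes an ETS-domain factor of cranial crest that is also expressed by endothelial and lymphoid cells (rn6 chr8:33816338-33879625). With unnamed rows added, Ets1 came next after Sox10 and Foxd3 in every sample. It was at 51.5, 46.8 and 42.4 FPKM in SCPs and 32.3, 26.5 and 27.0 FPKM in RSCs, with no unnamed row. The groups were apart, and the log2 fold change was -0.69 (SE 0.12, limma, adjusted p = 0.00539). Of its 2 annotated transcripts, the one of 5031 bases carried all of the signal in 5 samples, and the other was above 0 only in SCP 3 (4.86 FPKM). With named rows, 1 of 9 endothelial markers was called, Cldn5, and it was higher in RSCs, beside 5268 of all 13003 genes called. The endothelial sum was 44.0 to 79.9 FPKM in SCPs and 105 to 119 FPKM in RSCs, and 3 of 4 tested T cell markers were also higher in RSCs. The T cell sum was 0.620 to 1.77 FPKM and 8.06 to 23.3 FPKM, with Cd3e, Cd3d, Cd2 and Cd247 at 0 in all SCPs. The T cell count was 1 without RSC 1, and the endothelial count was 4 without SCP 2. The part of these cells in the Ets1 result was not tested.

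Snai1 encodes SNAIL, a zinc-finger repressor of epithelial genes (rn6 chr3:164274710-164279199). Its named transcript was at 28.5, 26.6 and 25 FPKM in SCPs and 18.4, 8.86 and 16.4 FPKM in RSCs. All RSCs were below all SCPs, and RSC 2 was well below the other RSCs. The log2 fold change of -0.89 (SE 0.27, limma, adjusted p = 0.0370) missed the call, and without RSC 2 it was -0.59 and called (adjusted p = 0.0200). RSC 2 also held an unnamed model of 6.82 FPKM, which brought it to 15.7 FPKM, next to the other RSCs. The change was then -0.64 (SE 0.10, adjusted p = 0.00157), and Snai1 was called. The promoter window of Snai1 (RefSeq, GRCr8, plus strand, chr3:176667226-176667475) is shown because it held matches to the motifs of 3 member families. The capitals mark GCCNNNGGC for AP-2 at 234 to 226 bases before the start, CAGGTG read on the other strand for SNAIL at 142 to 137 bases, and ACAAAG for SOX at 85 to 80 bases.

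Snai1: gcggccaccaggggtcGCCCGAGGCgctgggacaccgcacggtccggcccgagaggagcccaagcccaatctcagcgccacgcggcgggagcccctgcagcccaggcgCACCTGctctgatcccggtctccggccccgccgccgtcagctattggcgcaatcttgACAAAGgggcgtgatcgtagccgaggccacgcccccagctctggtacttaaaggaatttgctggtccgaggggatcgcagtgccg

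Snai2, which encodes the related repressor SLUG (rn6 chr11:90404421-90406730), gave no call in either fit. Its named transcript was at 1.98, 0 and 8.67 FPKM in SCPs and 4.09, 4.40 and 2.70 FPKM in RSCs. Unnamed models brought the values to 5.55, 4.08 and 8.67 FPKM in SCPs and 4.09, 4.40 and 6.99 FPKM in RSCs, and the groups overlapped. The estimate was 0.61 on the log2 scale (SE 0.81, limma, adjusted p = 0.575) with named rows and -0.18 (SE 0.29, 95% interval -0.88 to 0.51, adjusted p = 0.593) with unnamed rows, so its sign depended on the rows summed.

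Twist1, a basic helix-loop-helix factor of crest mesenchyme and of mesoderm (rn6 chr6:53401241-53403235), was lower in RSCs in both fits. The named values were 21.7, 20.5 and 11.9 FPKM in SCPs and 2.41, 6.01 and 4.51 FPKM in RSCs. An unnamed model raised SCP 3 to 17.6 FPKM, close to the other SCPs. No RSC reached the lowest SCP. Twist1 differed by -1.86 on the log2 scale (SE 0.35, limma, adjusted p = 0.00693) with named rows and -2.04 (SE 0.27, adjusted p = 6.71e-04) with unnamed rows. Its relative Twist2 moved the same way, from 21.3, 11.6 and 12.2 FPKM in SCPs to 4.86, 6.97 and 6.78 FPKM in RSCs (log2 fold change -1.12, SE 0.27, limma, adjusted p = 0.0183). Limb and connective tissue mesenchyme also expresses Twist1 and Twist2. With named rows, 4 of 9 tested markers of that mesenchyme were called, 3 of them higher in SCPs, beside 5268 of all 13003 genes. With unnamed rows 7 of 9 were called, beside 8038 of all 14020 genes. Of the 7, 6 were higher in SCPs, including Osr1 (-3.38) and Tbx4 (-3.16), and Osr2 (2.69) was higher in RSCs. The summed level of the listed markers, with unnamed rows, was 120 to 143 FPKM in SCPs and 50.1 to 62.7 FPKM in RSCs. The part of these cells in the Twist1 result was not tested.

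Mitf was the one member higher in RSCs, and this rested on unnamed rows. It encodes the master factor of melanocytes and also acts in macrophages and osteoclasts (rn6 chr4:130342624-130422735). The named transcript was at 1.10, 0.746 and 0.421 FPKM in SCPs and 2.51, 3.26 and 0 FPKM in RSCs (log2 fold change 0.51, SE 0.59, limma, adjusted p = 0.518). It was 0.25 without RSC 1 and 1.16 without RSC 3, was called in neither case, and fell below the filter without RSC 2. Unnamed models occurred in the RSC samples alone and raised them to 4.68, 5.21 and 4.62 FPKM. Every RSC then lay above every SCP, and the log2 fold change was 1.75 (SE 0.19, adjusted p = 2.69e-04). In RSC 3 both unnamed models began 169892 bases to the left of the named row. The 14 leukocyte markers, none of them at 0 in all samples of a group, rose in the same samples, as did the MITF-family genes Tfeb (log2 fold change 1.96) and Tfec (1.48 with unnamed rows). The part of leukocytes in the Mitf result was not tested.

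**Figure D3:**
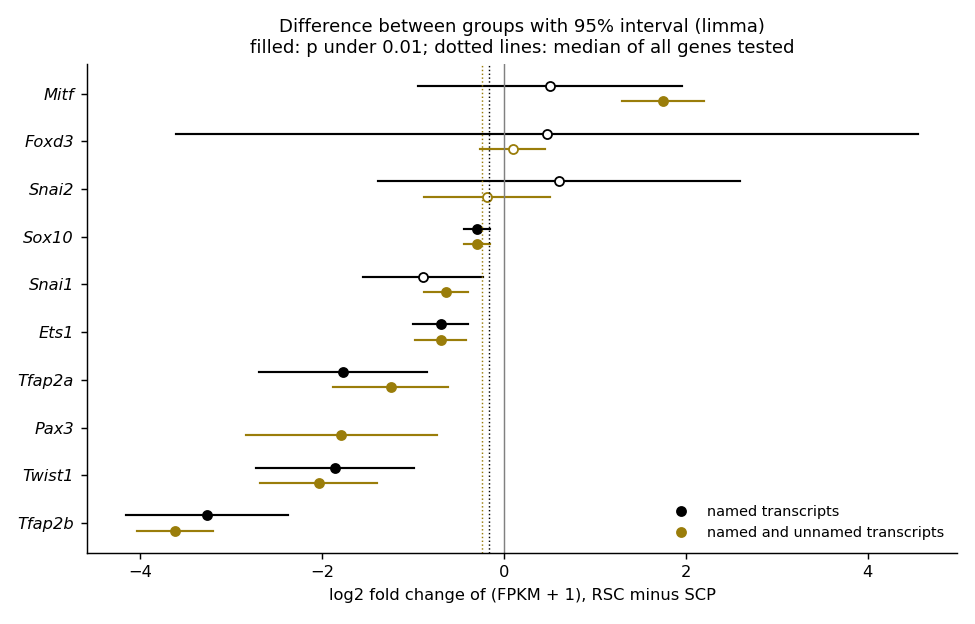
Log2 fold change of FPKM + 1, RSC minus SCP, with 95% interval for each member, from named transcripts (black) and from named and unnamed transcripts (yellow); filled points have an unadjusted p under 0.01 and dotted lines mark the median of all genes tested. Tfap2b lies farthest below 0, Mitf lies above 0 with unnamed transcripts, and the named-only interval of Foxd3 runs from -3.61 to 4.55.

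Relative to the median gene, the named log2 fold changes were -3.10 for Tfap2b, -1.69 for Twist1, -1.61 for Tfap2a, -0.72 for Snai1 and -0.53 for Ets1. From the highest down, and with unnamed rows added, Sox10, Foxd3, Ets1 and Snai1 held ranks 1, 2, 3 and 4 in all 6 samples. Below them, Tfap2b had rank 6 in every SCP and rank 9 or 10 in the RSCs, and Mitf had rank 10 in every SCP and rank 6 in every RSC. Percentages of Sox10 in the same sample, also with unnamed rows added, are free of the scaling between samples. On this measure Tfap2b averaged 6.83% ± 1.26 in SCPs and 0.0438% ± 0.0438 in RSCs (SD, n = 3). Twist1 went from 11.2% ± 1.29 to 2.99% ± 1.30 of Sox10. Mitf went from 0.423% ± 0.190 to 3.34% ± 0.263, and Foxd3 from 31.8% ± 1.07 to 42.5% ± 9.56. Snai2 was at 3.40% ± 1.26 and 3.57% ± 1.15 of Sox10, a difference smaller than the spread between samples.

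The genes whose profile over the 6 samples lay nearest to a member were sought for Sox10, Snai2 and Twist1 by Euclidean distance of centred log2(FPKM + 1), named rows. Nearest to Twist1 was another member, Tfap2a (distance 0.26), followed by Ttll4 (0.32) and Lpar4 (0.37). RSC 1 was the lowest RSC of both members with named rows. With unnamed rows RSC 1 was the highest RSC for Tfap2a (5.08 FPKM) and still the lowest for Twist1 (2.41 FPKM). No distance was computed with unnamed rows. Dynll2 (0.06), LOC102554034 (0.08) and Lta4h (0.09) were nearest to Sox10, each slightly lower in RSCs. Tmem186, Mxd1 and Mmp28 were nearest to Snai2, at distances of 0.69 to 0.75, and like the named Snai2 row all of them were listed at 0 in SCP 2.

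Among 16 relatives of the members from the same families, 13 were tested with named rows and 7 were called, 3 higher in SCPs and 4 higher in RSCs. In the same fit 5268 of all 13003 genes were called. The count of relatives called was 3 without RSC 1, 2 without RSC 3 and 4 without RSC 2, SCP 1 or SCP 3. Higher in SCPs were Foxd1 (-1.57), Pax7 (-1.54) and Twist2. Higher in RSCs were Sox8 (2.04), a SOXE factor like Sox10, Tfeb, Tfe3 (1.26) and Sox9 (0.77). With unnamed rows Sox9 and Tfe3 were no longer called (0.65 and 0.51), and Tfec and Ets2 (0.87), a relative of Ets1, were called higher in RSCs. Sox8 rose from 6.21, 4.07 and 3.07 FPKM in SCPs to 25, 21.6 and 16.4 FPKM in RSCs, in the opposite direction to Sox10. The AP-2 relatives Tfap2d and Tfap2e were at or near 0 in every sample, and Tfap2c was not called (0.50).

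With named rows, 5268 of all 13003 genes tested were called. Of 27 other regulators of crest and neural plate border, 15 were tested in that fit and 6 were called, a similar share. Lmo4, a LIM-only cofactor, was the most changed of them, at 241, 254 and 288 FPKM in SCPs and 59.1, 54.0 and 60.8 FPKM in RSCs (log2 fold change -2.15, SE 0.09, limma, adjusted p = 3.84e-05). Rxrg (-1.59), a retinoid X receptor, Hand2 and Tcf12 were also higher in SCPs, while Myc (1.51) and Id2 (0.88) were higher in RSCs. With unnamed rows 11 of 16 were called, beside 8038 of all 14020 genes. Of the 11, 7 were higher in SCPs and 4, Myc, Prdm1, Id4 and Sox6, higher in RSCs, and Id2 lost its call (0.70). Border genes of the DLX, MSX and ZIC families were low throughout, and Zic1 was at 0 in all RSCs.

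Genes known as targets of SOX10 in glia moved far more than Sox10 itself. With named rows, 9 of 13 tested genes were called, all higher in RSCs, beside 5268 of all 13003 genes. With unnamed rows, 13 of 14 were called, beside 8038 of all 14020 genes. Of the 13, 12 were higher in RSCs and 1, Ednrb, was higher in SCPs. S100b was at 3.21, 11.7 and 19.3 FPKM in SCPs and 924, 782 and 843 FPKM in RSCs (log2 fold change 6.37, SE 0.56, limma, adjusted p = 3.72e-04 with named rows). Also with named rows, Mbp, which encodes myelin basic protein, differed by 5.24 and Egr2, the myelin regulator Krox20, by 3.03. Ednrb, the endothelin receptor of crest and precursors, was at 200, 203 and 239 FPKM in SCPs and 12.2, 11.8 and 11.1 FPKM in RSCs with unnamed rows, a log2 fold change of -4.07 (SE 0.10, limma, adjusted p = 1.21e-06). With named rows Ednrb was at 0 in SCP 2 and was not called (-3.38, SE 1.64, limma, adjusted p = 0.142).

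Pigment cell genes known as MITF targets did not move as a block. Of 14 listed, 13 were in the tables and 7 were tested. With unnamed rows all 7 were called, beside 8038 of all 14020 genes, with 5 higher in RSCs and 2 higher in SCPs. Gpnmb, a lysosomal glycoprotein that macrophages also make, rose most in RSCs (6.45 with named rows), followed by Met (2.96). Dct, an enzyme of melanin synthesis, was higher in SCPs, at 9.88, 21.0 and 36.3 FPKM against 0.297, 0 and 0 FPKM in RSCs (log2 fold change -4.25, SE 0.46, limma, adjusted p = 8.40e-04). The genes that define pigment cells were divided. Mlana was at 0 in every sample and Tyr did not exceed 0.0642 FPKM. Tyrp1 was at 0, 0.0622 and 0.216 FPKM in SCPs and 3.19, 1.07 and 2.35 FPKM in RSCs, called in both fits, and Pmel was at 6.38, 6.27 and 4.99 FPKM against 0, 3.16 and 0 FPKM (-2.09, called with unnamed rows).

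Genes at either end of the epithelial to mesenchymal transition, in which SNAIL, SLUG and TWIST act, were compared next. Of all genes tested, 5268 of 13003 were called with named rows and 8038 of 14020 with unnamed rows. Of 15 epithelial genes, 6 were tested with named rows and 4 were called, with Cldn1 (2.42), Epcam (1.63) and Ocln (1.38) higher in RSCs and Krt19 (-1.18) higher in SCPs. With unnamed rows 5 of 7 were called, 3 higher in RSCs and 2, Krt18 (-1.62) and Krt19, higher in SCPs. The median log2 fold change of the tested epithelial genes was 0.81 with named rows and 0.24 with unnamed rows. Cdh1, the classical SNAIL target, had a mean below the filter, at 0.573, 0.690 and 0.474 FPKM in SCPs and 1.69, 1.09 and 1.01 FPKM in RSCs. Of 10 tested mesenchymal genes, 7 were called, 6 of them higher in RSCs, led by Vim and Fn1 (2.88 each). With unnamed rows 8 of 11 were called, 5 higher in RSCs and 3 higher in SCPs. Of the cadherins in that list, Cdh2 was at 94.0, 82.2 and 77.0 FPKM in SCPs and 3.45, 2.32 and 2.46 FPKM in RSCs (log2 fold change -4.52, SE 0.16, limma, adjusted p = 2.50e-05), and Cdh6, with unnamed rows, at 101, 98.3 and 85.6 FPKM against 2.17, 1.58 and 1.90 FPKM. Cdh11 was not called (-0.55) and Cdh7 was near 0, while Cdh19, a cadherin of the Schwann cell lineage, was higher in RSCs with unnamed rows (0.77).

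**Figure D4:**
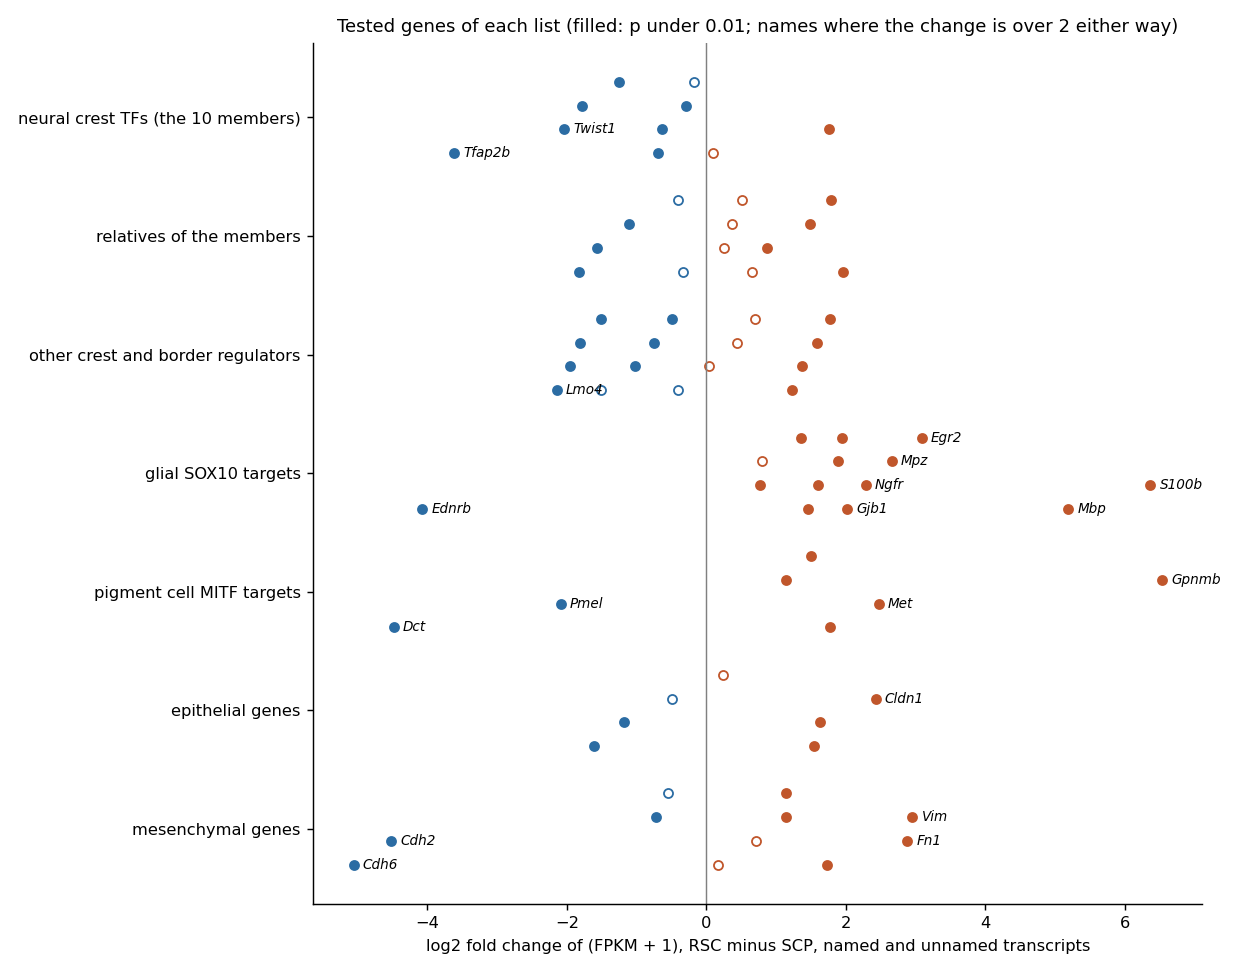
Log2 fold change of FPKM + 1, RSC minus SCP, for the tested genes of the member list and of 6 related lists, named and unnamed transcripts together; filled points have an unadjusted p under 0.01, blue is higher in SCPs and orange higher in RSCs. The members lie mostly left of 0, and the glial SOX10 targets lie right of 0 except Ednrb.

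Promoter windows of 250 bases were found in RefSeq (GRCr8) for 5 of the 10 members, Foxd3, Mitf, Pax3, Snai1 and Twist1, and searched on both strands for 5 motifs. CACGTG occurred in Pax3, at 92 to 87 bases before the start, and in Foxd3, and 5.59% of all 33469 promoters held it. Snai1 alone held CAGGTG, found in 15.9% of all promoters, as well as GCCNNNGGC, found in 12.6%, and ACAAAG, found in 16.3%. CATGTG occurred in none of the 5 windows, against 12.1% of all. The Twist1 and Mitf windows held none of the 5 motifs. The SNAIL and MITF motifs are all E-boxes of equal length, so that no 2 of them can match at the same position. The 5 windows were 58.0% to 69.6% G and C, above the median of 51.2% over all promoters.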

How the data were processed

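RNA of 3 SCP and 3 RSC samples was sequenced by the authors as stranded, paired-end mRNA libraries. The submitters' processing notes name FastQC 0.11.2, TopHat2 2.1.0 and Cufflinks 2.2.1, and the rat build rn6. The deposited tables, 1 for each sample, give the FPKM of each transcript with its confidence bounds, the coverage signal and the transcript length. Each value also had a Cufflinks status, and values marked LOWDATA were kept. That status marked the named transcript of Sox10 in SCP 2 and all RSCs, and that of Foxd3 in all samples but RSC 3. Some named values of Pax3, Snai2 and Mitf had it as well. No read counts were used here. The confidence bounds did not enter the fits, which took precision from the spread between the 3 samples of a group. Relative depth was read from coverage divided by FPKM. Unnamed models made up 26.1% to 31.9% of the FPKM of an SCP sample and 18.6% to 23.4% of that of an RSC sample. The share was thus higher in every SCP than in any RSC. Its part in the results with unnamed rows was not tested. In each table, 77 rows whose gene name had turned into a date were left out.

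Named rows were summed by symbol. Unnamed rows were added to the symbol they overlapped most under the same Cufflinks locus. Table starts count from 0 and were converted to 1-based coordinates. Genes averaging 1 FPKM or more in the 6 samples were fitted with limma 3.58.1 (R 4.3.3) on log2(FPKM + 1) with a variance trend and no covariate, two-sided, with Benjamini-Hochberg adjustment. Calls were made at an unadjusted p under 0.01, and at a log2 fold change over 2 for 4-fold, after the thresholds of the study. Tested on simulated data of 13003 genes, with 200 given a log2 difference of 3, the fit called 96.5% of the changed and 1.2% of the unchanged genes. The changed genes were drawn only from those with a mean log2(FPKM + 1) over 3. Signal moved into unnamed models was not simulated. The share recovered therefore does not describe lower members or smaller changes. Promoter sequences came from RefSeq (GRCr8), and no sequence was read by rn6 coordinates.

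The members, the lists and the tests were chosen with earlier results of these data known. Genes named beside the members were the 2 with the largest called change in each direction of each list, the defining markers, and the 3 nearest profiles of Sox10, Snai2 and Twist1. Some genes outside this rule were named after their values were seen: Tfec, Twist2, Tfe3, Sox9, Tfap2c, Tfap2d, Tfap2e, Hand2, Tcf12, Zic1, Egr2, Ocln, Cdh1, Cdh7, Cdh11, Cdh19, Mlana, Tyr, Tyrp1, Pmel, Ets2, Prdm1, Id4, Sox6 and LOC102556374. Alternatives were pseudocount, filter, normalization, variance trend, replicate block, left-out samples, the highest transcript and values of 0.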

Additional observations from a re-analysis of the deposited data

How the results depend on the processing

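The log2 fold changes of Tfap2b, Twist1 and Ets1 kept their direction and their call in both fits under every alternative that gave a value, except that named Tfap2b fell below a filter of 5 FPKM and so was not tested there. Median-of-ratios scaling put Sox10 at -0.088, or -0.035 with unnamed rows, and ended its call; it also turned Snai2 with unnamed rows to 0.037, moved Foxd3 (0.09 to 0.36), Snai1 (-0.64 to -0.38) and Ets1 (-0.69 to -0.44) with unnamed rows without changing their calls, and raised the share of all calls that were higher in RSCs from 44.6% to 55.5% (40.5% to 53.3% with unnamed rows). Without a variance trend Sox10 lost its call at -0.30 in both fits. Leaving out values of 0 turned Snai2 to -0.20. Adding unnamed rows put Snai1 at -0.64, Snai2 at -0.18 and Mitf at 1.75, the members called at 8, those over 4-fold at 2 and all genes called at 8038 in place of 5268. With named rows the count over 4-fold was 0 at a filter of 5 FPKM and 3 at a pseudocount of 0.1. With unnamed rows it was 1 under median-of-ratios scaling, 1 under quantile normalization and 4 at a pseudocount of 0.1. The alternatives that combine unnamed rows with another setting were chosen after seeing the data.

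The deviations of same-numbered samples correlated at -0.0049 to 0.044 over genes, or 0.034 to 0.062 with unnamed rows. Those of differently numbered samples correlated at -0.048 to 0.022, or -0.051 to 0.0028 with unnamed rows, where every same-numbered value was higher. All values lay near 0, and the numbers were not used as pairs in the main fits. No label says what they mark, and whether same-numbered samples shared a preparation was not tested. With the replicate number as a block, Sox10 (-0.30 in both fits) and Tfap2a (-1.77, named rows) lost their call, and 3 members were called with named rows, as were 3 of their relatives in place of 7. Leaving out each sample in turn gave ranges of -0.32 to -0.29 for Sox10, -2.08 to -1.77 for Pax3 with unnamed rows, and -2.06 to -1.43 for Tfap2a, or -1.44 to -1.05 with unnamed rows. Foxd3 ranged from -1.16 to 1.63, or -0.071 to 0.20 with unnamed rows, reversing to -0.11 without SCP 1 or SCP 3. Snai1 ranged from -1.08 to -0.59, and Snai2 from -0.20 to 1.43, or -0.40 to 0.063 with unnamed rows. Mitf ranged from 0.25 to 1.16, or 1.61 to 1.89 with unnamed rows. The count of members over 4-fold ranged from 1 to 3 in both fits. The number of fragments behind low members such as Pax3, Mitf and Snai2 is unknown, and in the fits their precision rests on 3 samples in a group. The confidence bounds of single low values were wide. The named Snai2 transcript in RSC 3, for example, was at 2.70 FPKM with bounds of 0.333 and 4.99. The cause of each changed call was not tested.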
